A study of Mus musculus with 96 samples.

Results

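The BCL2 family decides at the mitochondrial outer membrane whether a cell starts apoptosis. Its survival proteins, here Bcl2, Bcl2l1 (BCL-XL) and Mcl1, hold the pore-forming effectors Bax and Bak1 in check, and the BH3-only proteins, here Bid, Bbc3 (PUMA), Pmaip1 (NOXA), Bcl2l11 (BIM) and Bad, release or activate the effectors. In blood formation, Mcl1 is known for keeping haematopoietic stem cells alive and Bcl2l1 for keeping maturing red cell precursors alive. The 10 genes were taken by symbol from a table of 19836 genes, by a rule that uses no measured value, although they were chosen with earlier results of these data known, and all 10 passed the filter of 30 reads summed over all cells.

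The study measured single cells of C57BL/6 mouse embryos around the passage of forming haematopoietic stem cells (HSC) into the fetal liver. At E11.5 (embryonic day) it took precursors of stem cells (pre-HSC) from the aorta-gonad-mesonephros region (AGM, 48 cells) and from the yolk sac (16 cells), both sorted as Ter119-CD11b-CD144+c-kit+EPCR+. At E12.5 it took 16 liver cells labelled HSC, sorted as Ter119-Sca-1+c-kit+EPCR+, and at E14.5 another 16 liver cells labelled HSC, sorted as Ter119-Sca-1+c-kit+CD48-CD150+. No treatment or altered allele is named, and the AGM and yolk sac cells share age and gate. From the AGM to the E12.5 liver, tissue, age and gate change together, and from E12.5 to E14.5 age and gate do, so their parts cannot be told apart. The labels name no animal, litter or pool, so each group counts as 1 sample, no test was made, and a difference between groups is a difference between these sets of cells.

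Each cell had between 250235 and 1926882 reads, and the median number of genes detected was 5522.5 in the AGM, 5349.5 in the yolk sac, 4036 in the E12.5 liver and 4839 at E14.5. All 10 genes of a haematopoietic marker list had reads in each group, and the median summed level of that list per cell lay between 2571 CPM (reads scaled to a common library total) in the AGM and 3069 CPM in the yolk sac. The sum of a single cell fell as low as 55.9 CPM, at E12.5. Single genes of the list also differed. At E12.5 Itga2b was at 0.577 and Gfi1 at 81.3 CPM, against 54.4 and 36.8 in the AGM. In the yolk sac Gfi1 was at 6.097 and Spn at 9.19 CPM, against 36.8 and 51.5 in the AGM. In each of these 2 comparisons the other 8 genes were within 2-fold. Some wells stood apart. At E14.5, 4 of the 16 wells (cells 3, 8, 13 and 16) had Slc4a1, the anion exchanger of red cell membranes, above 100 CPM, while no cell of the other groups and no other E14.5 cell had a single read of it. Those 4 wells had 65244 CPM of the globin gene Hba-a1 against 40.6 CPM in the other 12, although the gate was Ter119-. At E12.5, cell 8 had 1011 genes, the fewest of any cell, and the group's highest summed levels of 4 marker lists of other cell types. These were macrophage markers at 24897 CPM (group median 1043), red cell markers at 11797 (598), megakaryocyte markers at 1515 (52.3) and mesenchymal markers at 132 (0).

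To show the sequences from which the most informative members are transcribed, 3 stretches of 250 bases just before a RefSeq start (GRCm38.p6, transcribed strand, 5′ to 3′) are given here. Mcl1 and Bcl2l1 are shown because the survival results turn on them, and Bax because its pooled level varied least between groups. The windows lie at chr3:95658471-95658720 (plus strand) for Mcl1, chr2:152831729-152831978 (minus strand) for the farthest upstream start of Bcl2l1, and chr7:45466899-45467148 (minus strand) for Bax, and none of them overlaps an annotated exon. Capitals mark matches to the searched motifs.
Mcl1: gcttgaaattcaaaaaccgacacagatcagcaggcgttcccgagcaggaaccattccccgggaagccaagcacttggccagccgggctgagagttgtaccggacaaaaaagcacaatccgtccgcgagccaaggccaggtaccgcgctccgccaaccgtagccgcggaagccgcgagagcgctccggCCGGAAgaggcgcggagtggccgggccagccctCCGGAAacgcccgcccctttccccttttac
Bcl2l1: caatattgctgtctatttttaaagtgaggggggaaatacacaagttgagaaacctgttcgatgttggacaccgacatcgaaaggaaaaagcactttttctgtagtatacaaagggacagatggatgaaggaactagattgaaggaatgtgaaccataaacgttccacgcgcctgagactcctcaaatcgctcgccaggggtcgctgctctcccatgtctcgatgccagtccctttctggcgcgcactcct
Bax: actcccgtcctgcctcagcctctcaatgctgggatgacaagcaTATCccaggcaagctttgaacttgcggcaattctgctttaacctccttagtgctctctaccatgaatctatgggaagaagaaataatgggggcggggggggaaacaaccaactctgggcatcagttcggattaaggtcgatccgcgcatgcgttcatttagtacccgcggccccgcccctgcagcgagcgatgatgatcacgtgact
The motifs were searched on both strands. Of 32851 such windows of all genes, the GATA motif occurs in 53.62% and the STAT-type motif TTCNNNGAA in 7.02%. The ETS-type motif CCGGAA occurs in 12.03% and the CREB-type motif TGACG in 17.77%. The Mcl1 window held 2 matches to CCGGAA, at 63 and 30 bases before the start (-63 and -30), and no other. The Bax window held 1 match to GATA, on the reverse strand at -207, and this Bcl2l1 window held none of the 4. Bcl2l1 has 2 further RefSeq start windows, which overlap its own exons, and 1 of them holds a GATA match at -40. Guanine and cytosine made up 64.4% of the Mcl1 window, 54% of the Bax window and 47.6% of the Bcl2l1 window. The matches are letters only and say nothing of binding.

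In the annotation of the same build, Bcl2 lies on the minus strand at chr1:106538178-106714274, Bcl2l1 on the minus strand at chr2:152780668-152831728 and Mcl1 on the plus strand at chr3:95658788-95663176. The effector Bax lies on the minus strand at chr7:45461697-45466898 and Bak1 on the minus strand at chr17:27019810-27029009. The BH3-only genes Bid (minus strand, chr6:120891930-120916853), Bbc3 (plus strand, chr7:16308393-16318205), Bcl2l11 (plus strand, chr2:128126038-128162547) and Bad (plus strand, chr19:6941861-6951899) are spread over 4 chromosomes, and Pmaip1 lies on chromosome 18. Counts per gene cannot tell apart the long and short isoforms of Bcl2l1, Mcl1 or Bcl2l11. Exons of Bad and Bak1 overlap Gpr137 and Ggnbp1 on the opposite strand over 21.9% and 25.7% of their length, and the strand setting of the counting is not given in the sources used here.

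Compared per kilobase of exon, Bax was the highest member in each group, at 268 CPM per kb in the AGM, 256 in the yolk sac, 328 in the E12.5 liver and 234.1 at E14.5. The order below it changed. In the AGM, Mcl1 was next at 57.9 CPM per kb, above Bad at 42.3 and Bid at 24.8. In the other 3 groups Mcl1 was the fourth, below Bid and Bad, at 31.6 CPM per kb in the yolk sac, 15.8 in the E12.5 liver and 20.8 at E14.5. In the yolk sac, the 95% counting intervals of Bid (33.3 to 36.6 CPM per kb) and Bad (32.1 to 35.3) overlapped, and those of Bad and Mcl1 (30.4 to 32.9) did too. Bcl2l1 was the fifth in 3 groups, at 5.56 to 10.1 CPM per kb, and the ninth in the E12.5 liver. Bcl2 and Bak1 were the 2 lowest in the AGM and yolk sac, at 0.521 CPM per kb or less.

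**Figure D1:**
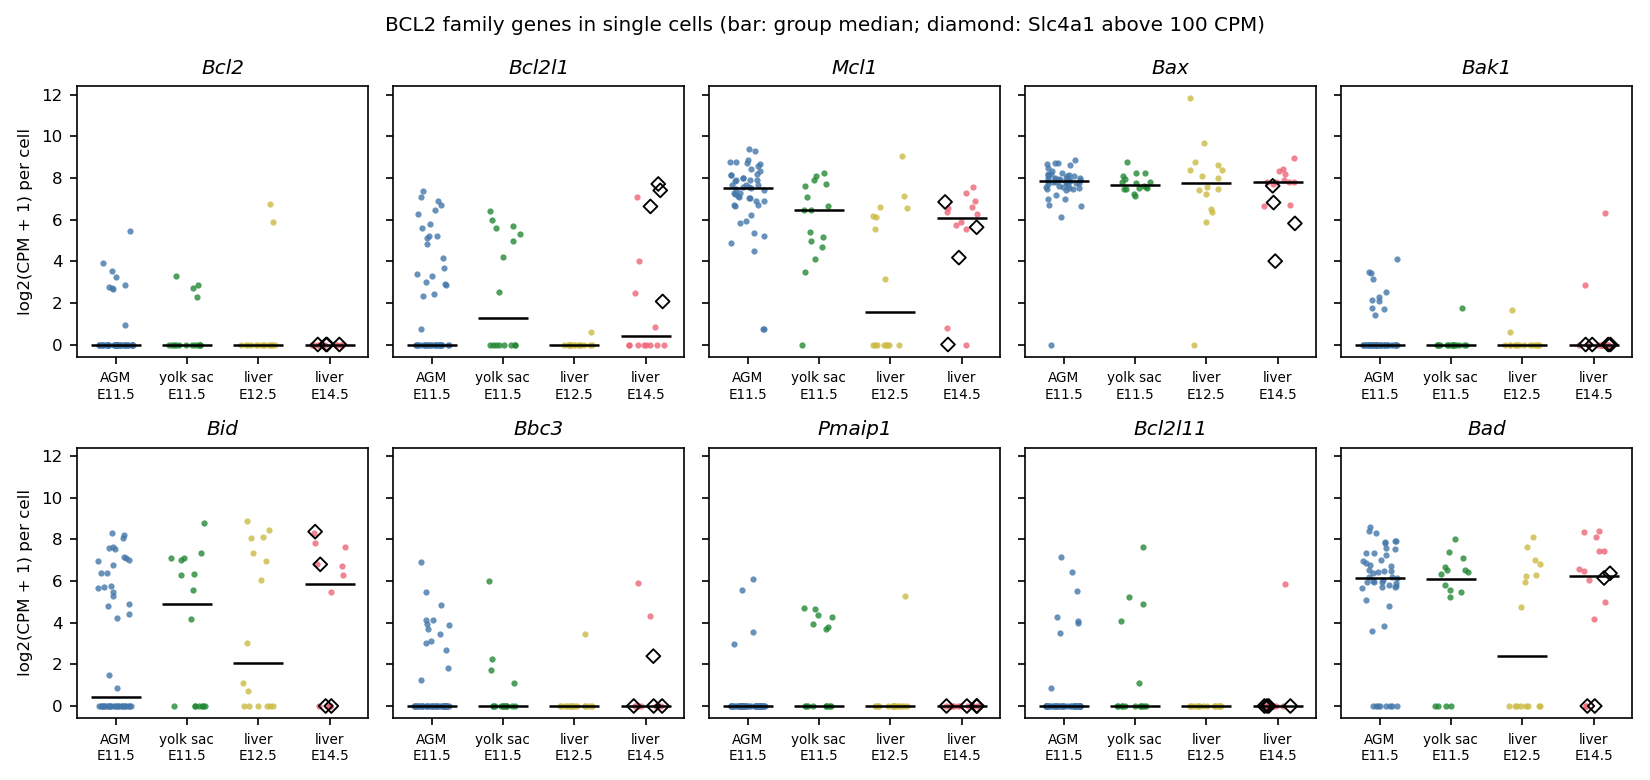
Level of the 10 genes in each of the 96 cells, as log2(CPM + 1), by group; each dot is a cell, bars are group medians of the plotted values, and open diamonds are the 4 E14.5 wells with Slc4a1 above 100 CPM. Most cells have Bax at similar levels, apart from single cells at 0 and at 3633 CPM, Mcl1 is lower outside the AGM, and most other members are at 0 in many cells.

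Mcl1, the short-lived survival protein, was the survival gene read in most cells, and it was highest in the AGM. AGM cells ranged from 0.684 to 661 CPM with a median of 182.98, yolk sac cells from 0 to 301 with a median of 87.1, E12.5 cells from 0 to 534 with a median of 3.96, and E14.5 cells from 0 to 187.98 with a median of 66.9. The ranges of all 4 groups overlapped, and the E12.5 group was split between cells with and without reads. Mcl1 was read in all 48 cells of the AGM, in 15 of the 16 from the yolk sac, in 8 of 16 from the E12.5 liver (50%, exact Clopper-Pearson 95% interval 24.7 to 75.3%) and in 14 of 16 from the E14.5 liver. With every cell thinned to 690000 reads and shallower cells left out, the counts were 42 of 43, 15 of 16, 7 of 14 and 11 of 14, so the lower share at E12.5 was also there at equal depth.

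Summed over the cells of a group, Mcl1 stood at 197.9 CPM in the AGM (exact Poisson 95% interval 194.4 to 201.5), 108.2 in the yolk sac (103.9 to 112.6), 53.95 in the E12.5 liver (50.7 to 57.4) and 71.0 at E14.5 (67.4 to 74.8). These intervals cover counting error of reads only, not the spread between cells or animals. E12.5 cells thus had 3.67-fold less than AGM cells (3.44 to 3.91). One well, cell 9, held 36.3% of the E12.5 reads, and without it the E12.5 level was 35.7 CPM. Among the 8 E12.5 cells with a Mcl1 read, the median number of genes was 4533, against 3779 in the 8 without, and median Bax was 182.8 against 301.5 CPM. The part of gene number in this split was not tested.

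Bcl2l1 was nearly unread in the E12.5 liver and was read in about every other cell elsewhere. Reads were found in 22 of the 48 cells from the AGM, 8 of the 16 from the yolk sac, 1 of 16 from the E12.5 liver and 8 of 16 from the E14.5 liver. AGM cells ranged from 0 to 163.6 CPM with a median of 0, yolk sac cells from 0 to 84.4 with a median of 2.36, E12.5 cells from 0 to 0.529 with a median of 0, and E14.5 cells from 0 to 208.7 with a median of 0.386. The lowest detected levels were 0.684 CPM in the AGM, 4.73 in the yolk sac and 0.772 at E14.5. The AGM and E14.5 values, like the E12.5 value of 0.529, were 1 read each. Those 3 values differ only by the depth of the cell.

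The pooled level of Bcl2l1 was 21.6 CPM in the AGM (20.4 to 22.8) and 23.9 CPM in the yolk sac (21.9 to 25.97), a ratio of 1.10 (0.996 to 1.22). All 16 E12.5 cells together gave 1 read, or 0.0525 CPM, which is 411.5-fold less than in the AGM with a counting interval from 73.7 to 16267. At E14.5 the level was 39.2 CPM (36.5 to 41.9), 746-fold above E12.5 with an interval from 133.5 to 29502. The width of both intervals comes from the single E12.5 read.

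The E14.5 level of Bcl2l1 lay mainly in a few wells. The 4 wells with Slc4a1 above 100 CPM held 69.1% of its E14.5 reads, at 127.9 CPM pooled (117.5 to 138.9, read in 4 of 4). Their separate levels were 3.20 CPM in cell 3, 168.3 in cell 8, 208.7 in cell 13 and 98.2 in cell 16. The other 12 wells had 15.3 CPM (13.5 to 17.4) and reads in 4 of 12, so the 2 sets of wells overlapped. With all wells, E14.5 was 1.81-fold above the AGM (1.66 to 1.98). Without those 4 it stood at 0.71 of the AGM level (0.618 to 0.814), so the direction of that difference turned. The difference from E12.5 stayed in the same direction, at 292-fold (52.0 to 11592).

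Within the 12 wells with no Slc4a1 read, cell 12 alone held 88.8% of the Bcl2l1 reads, at 135.6 CPM. The other 11 wells together had 28 reads of Bcl2l1, or 1.92 CPM. Leaving out any single E14.5 cell put the whole group between 28.1 and 43.2 CPM.

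The 4 wells with Slc4a1 also differed in other members. The effector Bax stood at 97.8 CPM in them against 231.2 in the other 12 wells, Bad at 35.8 against 143.2 CPM, and Mcl1 at 48.2 against 77.1 CPM. Bax ranged from 15.1 to 196.03 CPM over the 4 wells and from 99.3 to 498 CPM over the other 12, so single wells overlapped. Globin and other red cell transcripts made up between 4.73% and 24.2% of the reads of these 4 wells. With reads of the red cell list left out of the totals, an alternative added after seeing the data, the 4 wells had 148.7 CPM of Bcl2l1, 113.7 of Bax, 41.6 of Bad and 56.1 of Mcl1. The order against the other 12 wells, at 15.3, 231.3, 143.2 and 77.2 CPM, was the same. Bnip3l (NIX), which removes mitochondria from maturing red cells, was at 358.4 CPM in these wells and 214.9 CPM in the others. Epor, the erythropoietin receptor, was at 46.4 CPM (2 of 4 wells) and 13.7 CPM (1 of 12).

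**Figure D2:**
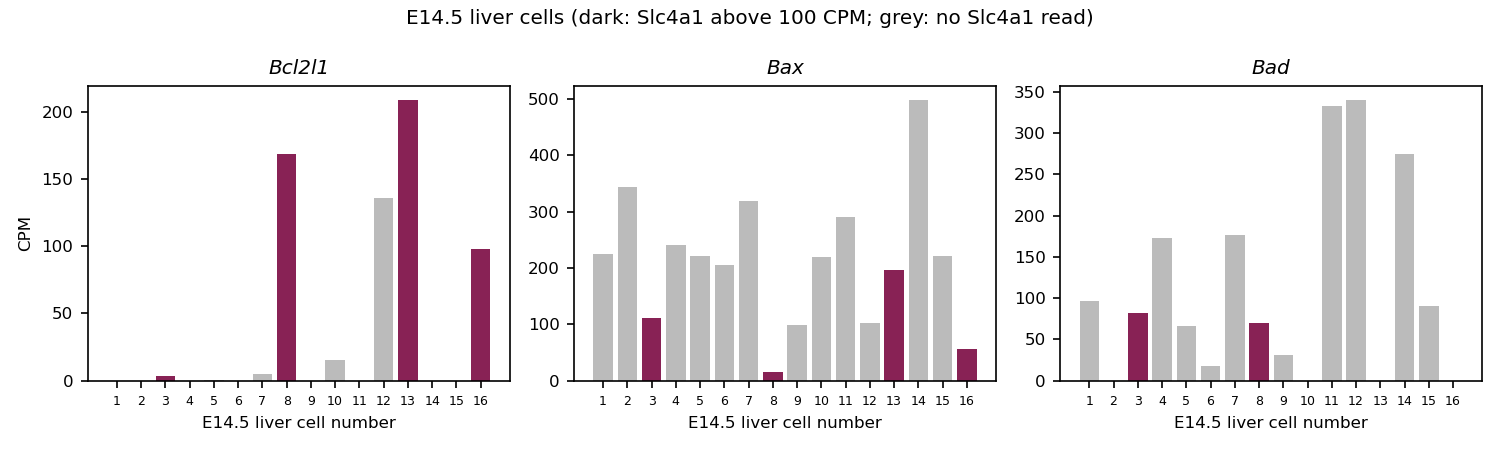
CPM of Bcl2l1, Bax and Bad in each E14.5 liver cell, with 1 bar per cell; dark bars are the 4 wells with Slc4a1 above 100 CPM. Bcl2l1 was highest in cell 13 (208.7 CPM) and cell 8 (168.3 CPM), both dark, and was at 135.6 CPM in cell 12, which had no Slc4a1 read.

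Bcl2 itself was scarce in all groups. Reads came from 9 of the 48 cells from the AGM, 4 of the 16 from the yolk sac and 2 of the 16 from the E12.5 liver. At E14.5 0 of 16 cells had a read, which with a limit of 3 cells leaves room for a share of 18.75%, and the exact upper limit was 20.6%. Cell values ran from 0 to 43.1 CPM in the AGM, 0 to 8.72 in the yolk sac and 0 to 106 at E12.5, with a median of 0 in each group. The pooled levels were 1.84, 1.70 and 10.9 CPM, and the E12.5 value came from cells 14 and 15 alone. The E14.5 cells had at least 74.9-fold less Bcl2 than the E12.5 cells, taking 3 reads for the whole group as the floor. Without cell 15 the E12.5 level was 4.97 CPM, and without cell 14 it was 6.78 CPM. The 2 E12.5 cells with Bcl2 had Bax at 81.9 CPM (cell 14) and 0 CPM (cell 15), a median of 40.96 CPM. The other 14 ran from 58.9 to 3633 CPM with a median of 261.9 CPM, so the 2 sets overlapped. A link between Bcl2 and Bax was not tested, and 2 cells are too few to show one.

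Taken per cell, the survival genes left a gap at E12.5. In the AGM, 0 of 48 cells lacked reads of all of Bcl2, Bcl2l1 and Mcl1, which with a limit of 3 cells leaves room for a share of 6.25%, and the exact upper limit was 7.40%. In the yolk sac 1 of 16 cells lacked all 3, at E12.5 7 of 16 did (43.75%, 19.8 to 70.1%), and at E14.5 1 of 16 did. After thinning the counts were 0 of 43, 1 of 16, 6 of 14 and 1 of 14. Without E12.5 cell 8 the E12.5 count was 6 of 15, and without the 4 wells with Slc4a1 the E14.5 count was 1 of 12. Adding the related survival genes Bcl2l2, Bcl2a1b and Bcl2a1d changed none of these counts. These genes were scarce, with pooled levels of at most 3.73 CPM in any group, so adding them could hardly change a count. All 9 of the cells without a survival gene read had reads of Bax. Bax was read in every cell but 1 from the AGM and 1 from the E12.5 liver, so this count sets those 9 cells apart from few others.

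The 7 E12.5 cells without a survival gene read were set beside the other 9 for depth and gene number. They had 250235 to 1781957 reads, with a median of 1200796, and the other 9 had 632526 to 1889832, with a median of 1127572. Their median number of genes was 3946, against 4077 in the other 9, and their Bax ran from 58.9 to 3633 CPM with a median of 330.6, against 0 to 430.3 with a median of 178.6. Depth and gene number overlapped between the 2 sets. Genes of the gate and the pan-leukocyte gene Ptprc were looked at after the split was seen. Kit, the receptor used in the sort, was read in 5 of 7 and 7 of 9 cells with medians of 1.67 and 115.3 CPM. Ptprc (CD45), which is not in the gate, was read in 3 of 7 against 9 of 9 cells, Procr (EPCR) in 3 of 7 against 5 of 9, and Ly6a (Sca-1) in 3 of 7 against 9 of 9. The part of cell identity, depth or gene number in the missing survival reads was not tested.

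**Figure D3:**
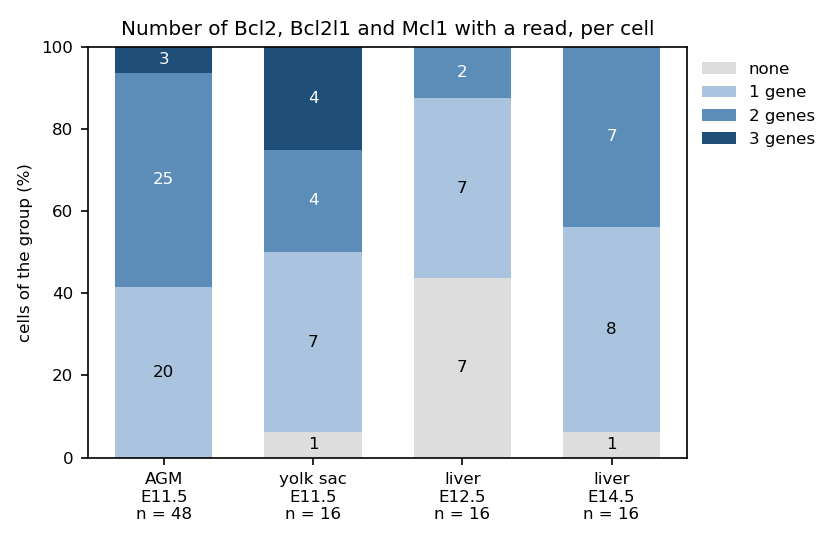
Number of the 3 survival genes Bcl2, Bcl2l1 and Mcl1 with at least 1 read per cell, as percent of the cells of each group, with cell numbers inside the bars. The grey block, cells with none, holds 7 of 16 E12.5 cells and at most 1 cell in each other group.

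Which survival genes were read together also differed. Mcl1 was the only survival gene read in 20 AGM, 7 yolk sac, 6 E12.5 and 7 E14.5 cells. Mcl1 and Bcl2l1 without Bcl2 were read in 19, 4, 1 and 7 cells of these groups. All 3 genes were read in 3 AGM cells and in 4 yolk sac cells. The 4 yolk sac cells with Bcl2 all had Bcl2l1 too, and had a median of 8579.5 genes against 4939 in the other 12. The part of gene number was not tested.

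Bax, the effector that healthy cells hold as an inactive protein, had reads in every cell but 1 from the AGM and 1 from the E12.5 liver. AGM cells ranged from 0 to 461 CPM with a median of 230.1, yolk sac cells from 137 to 435 with a median of 204.4, E12.5 cells from 0 to 3633 with a median of 219.3, and E14.5 cells from 15.1 to 498 with a median of 220.1. The medians lay close together and the ranges overlapped. Pooled levels were 232.6, 221.9, 284.6 and 203.01 CPM. The highest value, 3633 CPM, belonged to E12.5 cell 8, the well with 1011 genes, and without it the E12.5 level was 240.1 CPM. Of the Bax exon bases, 22.1% are shared with a gene model on the same strand, Gm45808, which was not analysed here, so part of the Bax level is uncertain.

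Bak1, the other effector, was close to unread. It had 75 reads in the AGM (11 of 48 cells, 1.24 CPM), 3 in the yolk sac (1 cell, 0.134 CPM), 5 in the E12.5 liver (2 cells, 0.262 CPM) and 129 at E14.5 (2 cells, 6.27 CPM). The AGM cells reached at most 16.3 CPM and the median was 0 in every group. The yolk sac level was 9.25-fold below the AGM, with a counting interval from 3.05 to 45.9. E14.5 cell 7 held 93.0% of the E14.5 reads, and without it that level was 0.472 CPM, so the E14.5 value describes 1 well.

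**Figure D4:**
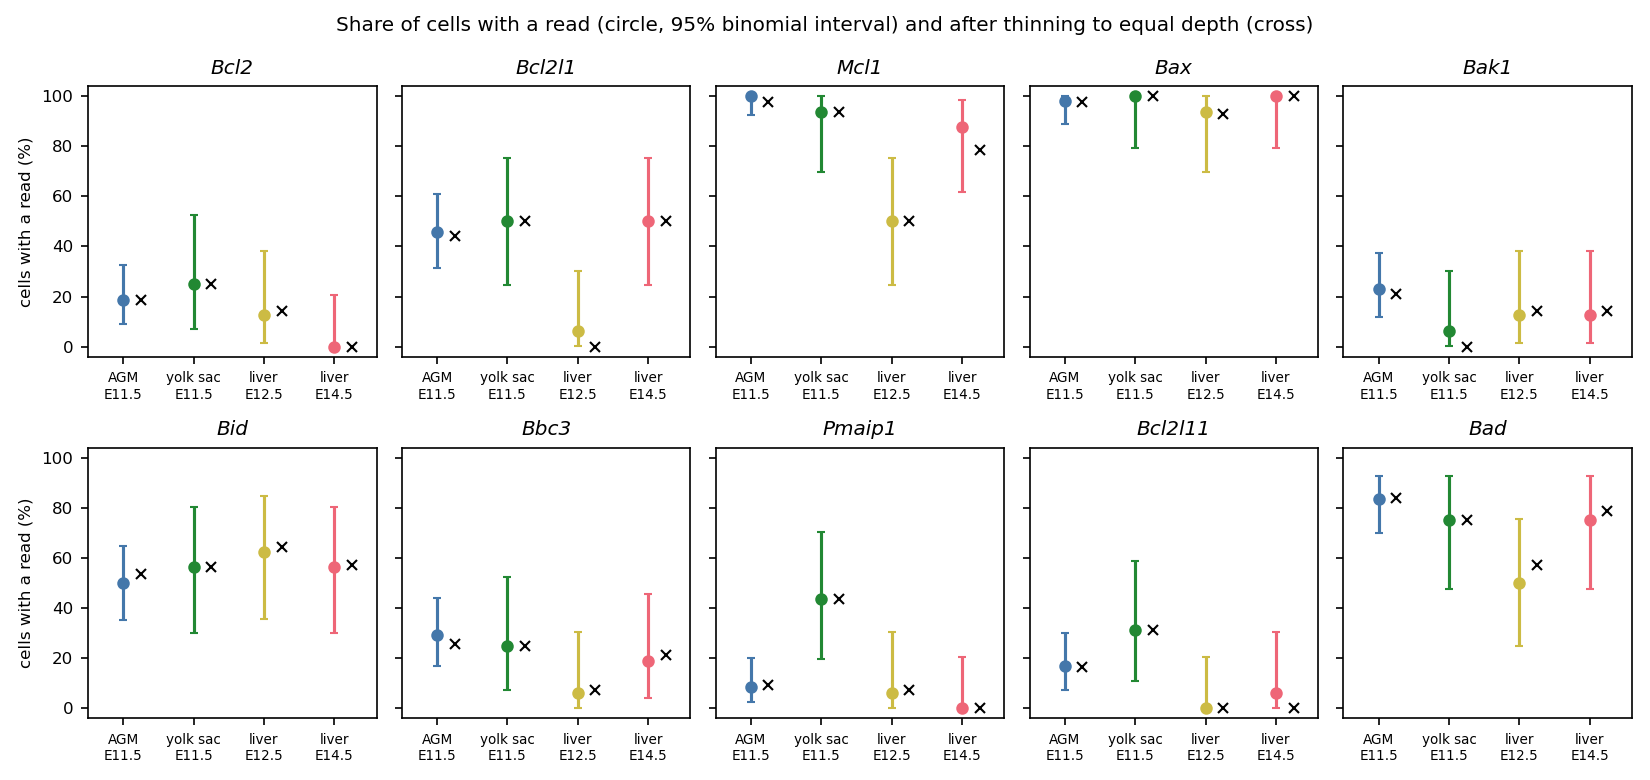
Percent of cells with at least 1 read of each gene, by group, with exact Clopper-Pearson 95% intervals (circles and bars). Crosses give the share after thinning to 690000 reads, with shallower cells left out. Bcl2l1 and Mcl1 have their lowest shares at E12.5 (6.25% and 50%) and Pmaip1 its highest in the yolk sac (43.75%). The shares of 6.25% of Bcl2l1 at E12.5 and Bak1 in the yolk sac are 0 after thinning. That of Bcl2l11 at E14.5 is 0 because its only cell with reads, cell 2, had 626645 reads and was left out.

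Among the BH3-only genes, Bid, which links death receptors to the mitochondrion, had its highest pooled level at E12.5. In the AGM 24 of 48 cells had reads (54.3 CPM pooled), in the yolk sac 9 of 16 (76.4 CPM), in the E12.5 liver 10 of 16 (123.3 CPM) and in the E14.5 liver 9 of 16 (84.1 CPM). Its cell medians were 0.416, 31.7, 4.14 and 60.0 CPM and its highest cells 317, 448, 467 and 331 CPM. The groups overlapped over nearly the whole range. Bid in E12.5 was 2.27-fold above the AGM (2.15 to 2.39), but without E12.5 cell 3 the log2 ratio dropped from 1.17 to 0.85, which is below 2-fold.

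Bad, which growth factor signalling silences by phosphorylation, had reads in 40 of 48 cells from the AGM, 12 of 16 from the yolk sac, 8 of 16 from the E12.5 liver and 12 of 16 from the E14.5 liver. Its cell medians were 70.9, 68.4, 13.2 and 76.0 CPM, with highest cells of 381, 263, 281 and 340 CPM. The pooled levels were 101.2, 80.6, 68.7 and 120.5 CPM, and E12.5 was lowest by share, median and pooled level, with overlapping ranges. E14.5 was 1.75-fold above E12.5 (1.64 to 1.88). Without the 4 wells with Slc4a1 the E14.5 level was 143.2 CPM, which placed Bad more than 2-fold above E12.5.

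Bbc3 and Pmaip1, both classical p53 targets, were read in few cells. Bbc3 was read in 14 of 48 AGM cells (6.17 CPM, highest cell 120), 4 of 16 yolk sac cells (4.48 CPM, highest 63.4), 1 of 16 E12.5 cells (0.525 CPM, 9.997) and 3 of 16 E14.5 cells (5.59 CPM, 58.7). Single wells set most of these levels: without yolk sac cell 15 the yolk sac had 0.479 CPM, without E14.5 cell 15 that group had 1.52 CPM, and without AGM cell 48 the AGM had 4.06 CPM. The E12.5 level was 11.8-fold below the AGM (6.32 to 24.7), from 10 reads in cell 1.

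Pmaip1 was the BH3-only gene read most widely in the yolk sac relative to the AGM. It was read in 7 of 16 yolk sac cells (43.75%, 19.8 to 70.1%) against 4 of 48 AGM cells (8.33%, 2.32 to 19.98%), 1 of 16 E12.5 cells and no E14.5 cell. The 7 yolk sac cells had 11.8 to 24.99 CPM, and the 4 AGM cells 6.77 to 67.6 CPM, so levels among cells with reads overlapped. Pooled, the yolk sac had 8.61 CPM and the AGM 2.87, a ratio of 2.999 (2.43 to 3.70), and leaving out any single cell kept the log2 ratio between 1.09 and 1.90. The 7 yolk sac cells had a median of 7311 genes against 4746 in the other 9, and the part of gene number was not tested. The E12.5 level, 3.52 CPM, came from cell 13 alone, and E14.5 was at least 24.1-fold below it.

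Bcl2l11, a strong activator of the effectors that FOXO factors and cytokine loss are known to raise, had reads in 8 cells from the AGM, 5 from the yolk sac, none from the E12.5 liver and 1 from the E14.5 liver. The pooled levels were 7.15, 18.4, 0 and 1.75 CPM, with highest cells of 139.6, 197.96, 0 and 57.5 CPM. E12.5 was at least 45.4-fold below the AGM and E14.5 at least 11.1-fold above E12.5, the latter from cell 2 alone. Yolk sac cell 15 held 68.4% of the yolk sac reads. Without it the yolk sac had 6.22 CPM, and the log2 ratio to the AGM went from 1.25 to -0.17, so the direction rested on that cell.

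Set side by side, the 3 comparisons gave different sets of members past 2-fold, on the scale of log2 of pooled CPM with 1 CPM added, which understates ratios of low genes. The first comparison, yolk sac over AGM, had 2 of 10 members at least 2-fold higher (Pmaip1 and Bcl2l11) and 0 lower. Of all 15239 genes with 30 reads, 8.61% were that much higher and 21% that much lower. The median of the members was -0.07, against -0.20 over all genes. On the lower side, Bak1 was at -0.98 (-1.17 without yolk sac cell 2) and Mcl1 at -0.87 (-1.01 without yolk sac cell 10).

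In E12.5 over AGM, 2 members were at least 2-fold higher (Bcl2 at 2.07 and Bid at 1.17) and 4 lower (Bcl2l1 at -4.42, Bcl2l11 at -3.03, Bbc3 at -2.23 and Mcl1 at -1.86). Over all genes 15.6% were higher and 26% lower by that much. The members' median was -0.69 and that of all genes -0.20. The 4 lower members include survival genes and BH3-only genes alike. With E12.5 cell 8 left out, an alternative added after seeing the data, the same 2 and 4 members passed.

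Markers of other cell types moved with the same groups. Of 12 endothelial markers, 8 were at least 2-fold lower in the yolk sac than in the AGM and 7 lower in the E12.5 liver, with none higher in either, and with medians of -1.58 and -1.35. Their summed level per cell ran from 272 to 12208 CPM in the AGM, 92.2 to 2551 in the yolk sac, 7.99 to 3161 at E12.5 (1 marker at 0) and 293 to 2686 at E14.5 (3 at 0). Macrophage markers were higher at E12.5 than in the AGM for 5 of 8, with a median of 2.53, and lower at E14.5 than at E12.5 for 5 of 8. Much of this rested on E12.5 cell 8. Without it the ratio to the AGM went from 5.02 to -0.02 for Mrc1 and from 4.63 to -2.09 for C1qc. C1qb went from 4.89 to 1.60, and C1qa to -0.24. Cd68, also higher, stayed at 0.67 or more with any single cell left out. In E14.5 over E12.5, Mrc1, C1qb and C1qc were at 0, 1.51 and 4.20 without cell 8. The macrophage sums ran from 0 to 6526 CPM in the AGM, 0 to 920 in the yolk sac (3 markers at 0), 0 to 24897 at E12.5 and 77.5 to 2263 at E14.5 (2 at 0). Red cell markers were higher at E12.5 than in the AGM for 9 of 15, with a median of 1.78, and higher at E14.5 than at E12.5 for 13 of 15. Their sums reached 653 CPM in the AGM, 946 in the yolk sac, 11797 in the E12.5 liver and 242011 in the E14.5 liver. The part of these other cell types in the member differences was not tested.

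In E14.5 over E12.5, 4 members were at least 2-fold higher (Bcl2l1 at 5.25, Bak1 at 2.53, Bbc3 at 2.11 and Bcl2l11 at 1.46) and 2 lower (Bcl2 at -3.58 and Pmaip1 at -2.18). The shares over all genes were 18.7% higher and 18.2% lower. The members' median was 0.60 and that of all genes 0, but thinning to equal depth turned the members' median to -0.13. Bak1 dropped to 0.22 without E14.5 cell 7 and Bbc3 to 0.72 without E14.5 cell 15. Bcl2l11 went to 0 without E14.5 cell 2, and Pmaip1 to 0 without E12.5 cell 13. Without the 4 wells with Slc4a1 Bad joined the higher members, which made 5. The first and second comparisons share the AGM cells and the second and the third share the E12.5 cells, so their values are not independent of each other.

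**Figure D5:**
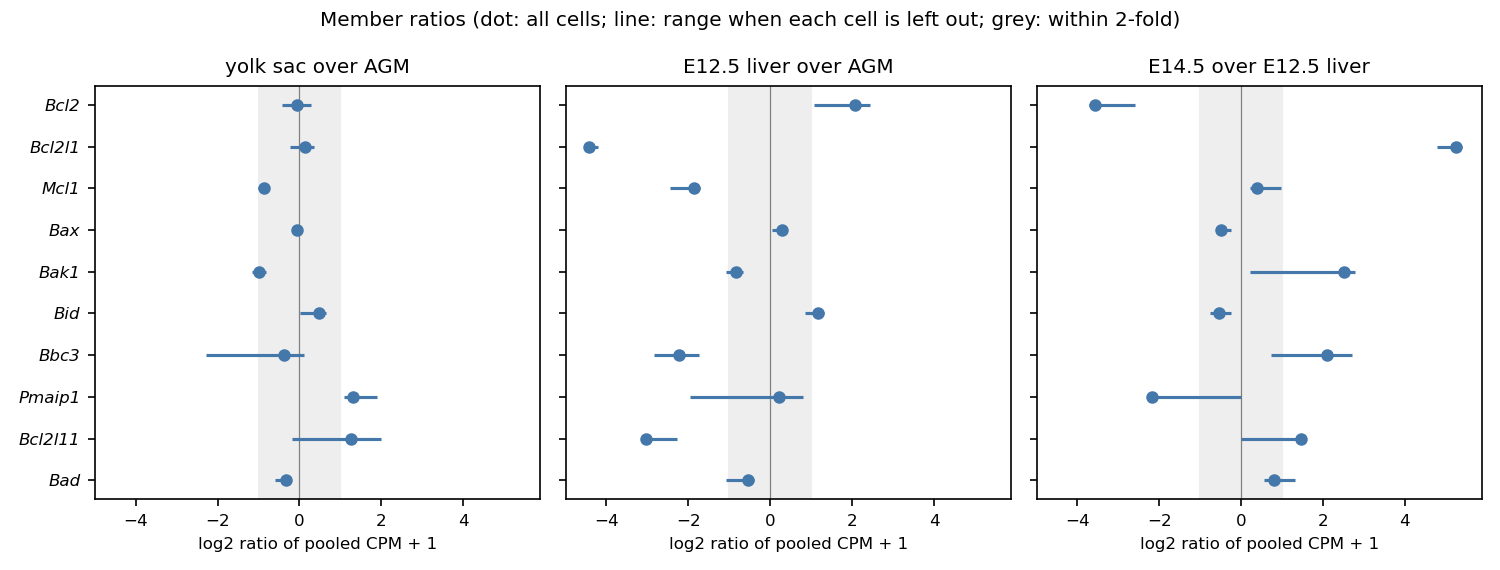
log2 ratio of pooled CPM + 1 for each gene in the 3 comparisons; dots use all cells, lines run over the values when each cell is left out in turn, and the grey band is within 2-fold. Bcl2l1 is far below 0 at E12.5 over AGM (-4.42) and far above at E14.5 over E12.5 (5.25), and long lines, as for Bak1 and Bcl2l11, mark values that rest on 1 cell.

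Relatives of the members from a wider BCL2 family list were described in the same way, 11 of 14 listed genes having 30 reads. The yolk sac had 1 of 11 at least 2-fold higher and 3 lower than the AGM, E12.5 had 1 higher and 0 lower than the AGM, and E14.5 had 1 higher and 1 lower than E12.5. The shares of all genes higher and lower were 8.61% and 21%, 15.6% and 26%, and 18.7% and 18.2% in these comparisons. Bcl2l13, a mitochondrial relative that takes part in mitophagy, was at 74.0 CPM in the yolk sac (9 of 16 cells) against 20.9 in the AGM (19 of 48), and the log2 ratio of 1.78 stayed between 1.55 and 2.29 with single cells left out. Bnip3, a mitophagy receptor induced by low oxygen, was at 149.6 CPM at E12.5 (12 of 16 cells) against 35.6 CPM in the AGM (26 of 48), at a log2 ratio of 2.04 (1.82 to 2.17 with single cells left out). Bok, an effector-like member, was at 11.3 CPM in the yolk sac and 23.6 in the AGM, and its ratio of -1.001 moved to -0.65 without AGM cell 30.

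Downstream of the effectors, cytochrome c, Apaf1 and the caspases carry out apoptosis. Of 13 genes of the apoptosome and caspase list, 1 was at least 2-fold higher and 2 lower in the yolk sac than in the AGM, 0 higher and 3 lower at E12.5 than in the AGM, and 4 higher and 0 lower at E14.5 than at E12.5. Beside these stand 8.61% and 21%, 15.6% and 26%, and 18.7% and 18.2% of all genes. Apaf1, the scaffold of the apoptosome, was at 0.630 CPM at E12.5 and 9.46 CPM in the AGM (log2 -2.68). Casp8, the initiator that cleaves Bid, was at 220.1 CPM in the yolk sac against 104.3 CPM in the AGM (1.07, and 0.98 without yolk sac cell 15).

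Inhibitors of caspases numbered 6. The yolk sac had 1 higher and 0 lower than the AGM, E12.5 had 1 higher and 3 lower, and E14.5 had 2 higher and 2 lower than E12.5. The all-gene shares were again 8.61% and 21%, 15.6% and 26%, and 18.7% and 18.2%. Cflar, which blocks Casp8, was at 21.5 CPM in the AGM, 8.66 in the E12.5 liver and 28.95 at E14.5. Birc3 was at 7.996, 3.20 and 44.7 CPM in the same groups, with log2 ratios of -1.10 and 3.44. The first of these moved to -0.88 without AGM cell 21. Without E12.5 cell 1 the 2 ratios were -3.17 and 5.51, so the E12.5 level of Birc3 rested mainly on that cell. Xiap, which binds active caspases, was at 22.7, 10.6 and 3.79 CPM, at log2 ratios of -1.03 (-0.88 without AGM cell 45) and -1.28 (-0.76 without E12.5 cell 3).

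For the p53 axis, which is known to drive Bbc3 and Pmaip1, 11 genes were listed. The yolk sac had 6 of 11 at least 2-fold higher than the AGM and 1 lower, with a median of 1.01 against -0.20 over all genes. Over all genes 8.61% were that much higher. The 6 were Aen, Ccng1, Sesn2, Zmat3, Perp and Fas, and 4 of them went under 2-fold when 1 yolk sac cell was left out: Ccng1 to 0.55 (cell 15), Zmat3 from 2.84 to 0.87 (cell 10), Perp from 1.01 to 0.41 (cell 7) and Fas from 1.04 to 0.26 (cell 13). The nuclease Aen was at 84.9 against 30.7 CPM (log2 1.44, 1.25 to 1.60 with single cells left out). Ccng1 was at 30.9 against 13.98 CPM. Trp53 itself differed little, at 496.6 against 404.2 CPM (0.30), as did its inhibitor Mdm2, at 72.2 against 69.9 CPM (0.05). Mdm4, the related inhibitor, was at 14.97 against 32.4 CPM (-1.07, and -0.90 without AGM cell 44). At E12.5 over AGM the list had 1 higher and 4 lower, with Cdkn1a at 12.1 against 45.6 CPM. The log2 ratio of Cdkn1a went from -1.83 to -5.31 without E12.5 cell 14, so its E12.5 level rested mainly on that cell. At E14.5 over E12.5 the list had 4 higher and 3 lower. The shares of all genes in these 2 comparisons were 15.6% and 26%, and 18.7% and 18.2%.

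Genes whose cell-to-cell pattern was most like a survival gene were ranked by Spearman correlation over the 96 cells, which share depth and gene number differences, and are named only at 0.5 or more. For Mcl1 these were Jund (0.54), Rgs2 (0.54) and Zfp36l1 (0.53), which fell to 0.36, 0.50 and 0.37 within the 48 AGM cells. For Bcl2, read in few cells, they were Trps1 (0.62), Parva (0.58) and Cttnbp2nl (0.56). None reached 0.5 for Bcl2l1, where the highest value was 0.45. The number of members read per cell went with the number of genes detected in each group, with Pearson and Spearman values of 0.75 and 0.58 in the AGM, 0.84 and 0.76 in the yolk sac, 0.66 and 0.70 at E12.5, and 0.46 and 0.47 at E14.5.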

How the data were processed

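The table holds raw read counts per gene, deposited by the authors as whole numbers, for 96 single cells with 1 cell per well. Per the submitters' processing notes, the tools include FastQC, Trimmomatic 0.36, STAR and HTSeq, with build mm10. Their roles, the annotation and the strand setting are not given in the sources used here. Per the labels, cDNA came from a SMART-Seq kit and libraries had 12 PCR cycles. No molecular identifiers are named, so intervals and floors cover counting error only.

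Rows with the same symbol were summed (113 of 19949 rows shared one), which gave 19836 genes. Reads were pooled per group and scaled to CPM. Ratios are log2 of pooled CPM + 1, for the 15239 genes with at least 30 reads. Pooled levels have exact Poisson 95% intervals and shares exact Clopper-Pearson 95% intervals. A group with 0 reads was set to a floor of 3 reads over the group. The labels name no animals, so each group was treated as 1 sample and no test was run. The ratio code was tested on simulated data, and the interval code was not. Exon lengths and coordinates came from GENCODE vM21 (mm10, GRCm38), in which all 10 members were found.

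The 10 genes and all lists were chosen with earlier results of these data known. Besides the members, at most 3 genes per list, direction and comparison are named, with a ratio of at least 2-fold, reads in 25% or more of the higher group's cells, and no single cell giving over 50% of its reads. Exceptions were named after their values were seen: Sesn2, Zmat3, Perp and Fas (to complete a count), Trp53 and Mdm2 in the yolk sac, Mrc1, C1qa, C1qb and C1qc (to show the part of 1 cell), Bnip3l, Epor, Kit, Ptprc, Procr and Ly6a. No 2 cells had identical counts. Bcl2a1a, Bcl2l10, Hrk and Serpinf2 were not analysed here, and some genes that the rule would name are not reported here. Alternatives covered thinning, scaling, the CPM added, filters, thresholds, the Slc4a1 wells and single cells. Python 3.11.15, numpy 2.4.6, pandas 2.3.3 and scipy 1.17.1 were used.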

Additional observations from a re-analysis of the deposited data

How the results depend on the processing

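No paired analysis was possible because the labels give cell numbers within each group only and name no shared animal. For yolk sac over AGM, the members' median was -0.28 after thinning and 0.16 with only the first 16 AGM cells. The count of members at least 2-fold higher was 0 at 4-fold and 0 with 10 CPM added. The count lower was 2 at 1.5-fold, and 1 with the mean of cell CPM, after thinning or with the first 16 AGM cells. With single cells left out these counts were 1 to 2 and 0 to 1, and the median lay between -0.17 and 0.04. For Bcl2l11 the lowest ratio over left-out cells was -0.17 (yolk sac cell 15 out) and the highest 1.999 (AGM cell 47 out). For E12.5 over AGM, 10 CPM added gave a median of -0.32, 1 member higher and 2 lower. The higher count was also 1 at 4-fold, with the mean of cell CPM and after thinning, and 1 to 2 with single cells left out. The median lay between -1.26 and -0.60 over left-out cells. For E14.5 over E12.5, the median was -0.13 after thinning, 0.29 with 10 CPM added, 0.78 without the Slc4a1 wells, and 0.18 to 0.94 over left-out cells. With 10 CPM added, 1 member was higher and 1 lower, and the lower count was 1 to 2 over left-out cells. Bcl2l1 at E14.5 was 46.2 CPM after thinning, 15.3 CPM without wells with Slc4a1 above 100 CPM, above 10 CPM or with any read, and 28.1 to 43.2 CPM over left-out cells. Of 2 alternatives added after seeing the data, leaving red cell reads out of the totals gave 40.4 CPM, and leaving out both the Slc4a1 wells and cell 12 gave 1.92 CPM. For the thinned values the cause was not tested.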

Other observations

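The receptors and kinases through which growth factors keep these cells alive were described as a list of 15 genes. The yolk sac had 3 at least 2-fold higher and 6 lower than the AGM, E12.5 had 4 higher and 1 lower than the AGM, and E14.5 had 2 higher and 4 lower than E12.5. Of all genes, 8.61% were higher and 21% lower in the first comparison, 15.6% and 26% in the second, and 18.7% and 18.2% in the last. Pim2, a survival kinase, was at 58.1 CPM in the yolk sac against 19.2 in the AGM (log2 1.55, and 0.92 without yolk sac cell 12). Stat5a, which carries cytokine signals to Bcl2l1 and other genes, was at 6.37 CPM in the yolk sac and 25.4 in the AGM (-1.84). Stat5b was at 30.3 CPM at E12.5 against 8.33 in the AGM (1.75). Foxo3, a known activator of Bcl2l11, was at 30.1 CPM at E12.5 against 7.47 in the AGM (1.88). The part of Stat5b and Foxo3 in the levels of Bcl2l1 and Bcl2l11 was not tested. Jak2 was at 18.1 CPM in the E12.5 liver and 0.194 CPM at E14.5 (-3.9999). Usp9x, a deubiquitinase that stabilises MCL1 protein, was at 11.7 CPM in the yolk sac against 32.95 in the AGM (-1.42). Il3ra was at 0.986 against 5.28 CPM (-1.66).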
